A study of Mus musculus with 12 samples.

Results

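The expression of 10 mouse genes that hydroxylate, fold and cross-link collagen was described across the cell types of arthritic and resting joints. They were picked by name for their shared task and not by their values, though earlier results of these data were known. The lysyl oxidases were Lox, Loxl1, Loxl2, Loxl3 and Loxl4, and the lysyl hydroxylases were Plod1 and Plod2. The others were the prolyl 4-hydroxylase alpha subunits P4ha1 and P4ha2 and the collagen chaperone Serpinh1, also called HSP47. All 10 symbols were found, each once, among the 27998 genes of the count matrices.

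Collagen chains are modified and folded in the endoplasmic reticulum before they are secreted. Prolyl 4-hydroxylases hydroxylate prolines and so keep the triple helix stable at body temperature, lysyl hydroxylases hydroxylate lysines, and HSP47 binds the folded helix until it leaves. Outside the cell the lysyl oxidases, which need copper, oxidise lysines and hydroxylysines of collagen and elastin so that neighbouring molecules become covalently linked. Hydroxylysine in the short ends of the chains, the substrate made by Plod2, gives the stable cross-links that are common in cartilage, bone and scarred tissue.

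The cells were sorted, live and without the leukocyte marker CD45, from hind limb joints of male wild-type C57BL/6 mice aged 8 to 10 weeks. Arthritis was caused by a single injection of serum from K/BxN mice (serum transfer-induced arthritis), which brings in antibodies and so leaves out the T and B cell phase of disease. The labels put 3 libraries each at rest, at the peak, in resolution and after it. The study's methods give these stages as day 0, days 7 to 9, day 15 and day 22. Each of the 12 libraries pooled the joints of 3 animals and gave 10x Genomics 3′ counts of unique molecular identifiers (UMIs). Of 21042 deposited cells 20060 were kept, no kept cells of different libraries shared a barcode, and each library held between 7468914 and 16566202 UMIs.

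The stage labels did not sort these libraries. In the summed fibroblast-like cells, all 12 libraries had their nearest neighbour, by correlation over 11789 genes, in the same run of 3 consecutive barcode suffixes (the number at the end of a library's cell barcodes), and 0 of 12 had it among libraries with their own stage label. Run 1 held rest 1, peak 1 and resolving 1, and run 2 held resolved 1, rest 2 and peak 2. Run 3 held resolving 2, resolved 2 and rest 3, and run 4 held peak 3, resolving 3 and resolved 3. As the 3 stage labels within each run differ, the count of 0 of 12 follows from the first count. What a run stands for is not given in the sources used here. Whether some libraries carry a wrong stage label or wrong barcodes could not be settled, so every value by stage holds only as labelled. Stages and runs are described separately below. The tests of cell types do not use the stage labels, because types were compared within libraries. The study's upper UMI limits on cells did differ by labelled library, and fits without these limits are among the alternatives given below.

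Clusters were named from marker genes, and the 10 genes, like all genes of the lists named below, were kept out of the clustering. The 12 named types were fibroblast-like cells (11424 cells in 9 clusters), vascular endothelial-like (1768), osteoblast-like (1409), proliferating (677), tenocyte-like (664), perivascular-like (655), chondrocyte-like (311), muscle-like (266), lymphatic endothelial-like (186), immune-like (112), Schwann-like (108) and erythroid-like cells (61). A further 2419 cells in 4 clusters stayed unnamed. The chondrocyte-like cluster carried 8 of 8 of its markers, the tenocyte-like 6 of 6, the osteoblast-like 7 of 8, and the proliferating cluster carried 7 of 7 cell cycle markers together with 7 of 7 fibroblast markers. Counts were summed per library and type where a library had at least 10 cells of it, and levels are given as CPM, the gene's share of all UMIs in that sum on the usual counts-per-million scale, as the mean ± SD over libraries. A gene was counted as higher or lower where edgeR's quasi-likelihood test gave a Benjamini-Hochberg adjusted p under 0.05 over all genes tested and a log2 fold change over 0.5; errors on log2 fold changes are standard errors.

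The members were collected at different depth. In the kept cells Serpinh1 had 282362 UMIs, Lox 47362, Loxl1 35144, Plod2 22383, Loxl2 19315, P4ha1 15956, Plod1 14501, P4ha2 12481 and Loxl3 9836, and Loxl4 had 304. Loxl4 was therefore too sparse to be tested between cell types, and 9 members entered those tests. RNA free in the suspension can put UMIs into droplets of cells that do not make a gene. The immune-like cells, which are no main source of these enzymes, held 10.3 ± 9.12 CPM for Lox, 36.5 ± 29.5 for Loxl1 and 89.7 ± 38.5 for Serpinh1 (n = 3 libraries). Levels in other types at or under these values are read as background.

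**Figure D1:**
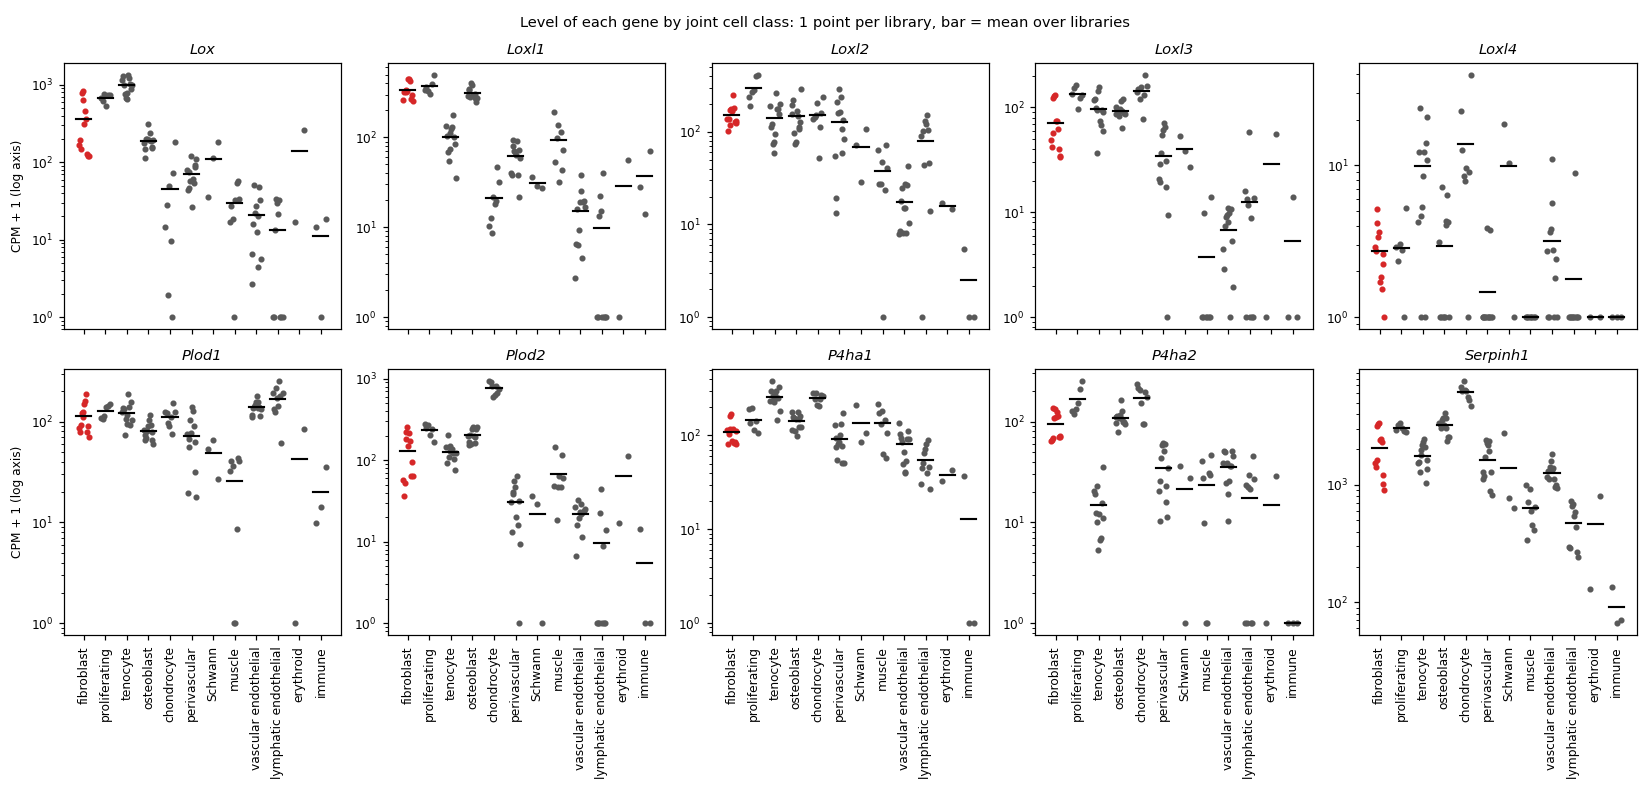
Level of each of the 10 genes in the summed cells of each named type, as CPM + 1 on a log axis (a value of 1 is 0 CPM), with 1 point per library and a bar at the mean; fibroblast-like cells are in red. Lox is highest in tenocyte-like cells (mean 986 CPM), Plod2 and Serpinh1 in chondrocyte-like cells (763 and 6101 CPM), and P4ha2 is at 0 in the 3 immune-like sums and at a mean of 13.8 CPM in tenocyte-like cells.

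Lox, the enzyme that starts cross-linking of collagen and elastin fibres, lies at chr18:52516067-52529867 on the minus strand (GRCm38). It was highest in tenocyte-like cells, at 986 ± 236 CPM (n = 12 libraries; lowest 658, median 989, highest 1335), against 357 ± 267 in fibroblast-like cells (119, 253 and 834). The ranges overlapped. Tenocyte-like cells stood above the fibroblast-like cells of their own library in 10 of 12, the exceptions being resolved 1 (765 against 793 CPM) and peak 2 (658 against 834). The difference was 1.78 ± 0.24 on the log2 scale (edgeR adjusted p = 2.7e-09). It was smaller, and still past the test, with coarser clusters (1.10) and without upper limits on genes and UMIs (1.23). Both settings widened the tenocyte-like cells. Without upper limits a cluster of 1114 cells led by Angptl7, Fbln7 and Gpnmb took that name too, beside 701 other cells. Osteoblast-like cells held 189 ± 50.7 CPM, which was lower by the test (log2 fold change -0.85 ± 0.24, edgeR adjusted p = 0.0027) although 4 of 12 libraries went the other way, and with DESeq2 it did not pass (-0.75, adjusted p = 0.052). Chondrocyte-like cells, at 44.3 ± 61.5 CPM in 8 libraries, were lower in 8 of 8 (-3.03 ± 0.36). The proliferating cells, at 679 ± 89.9 CPM in 6 libraries, were above the fibroblast-like cells in only 3 of them (0.61 ± 0.28, edgeR adjusted p = 0.084), and passed in 5 of 24 other settings, among them that without resolved 1 (0.73).

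Loxl1 (chr9:58287738-58313186, minus strand), a lysyl oxidase known for its part in elastic fibres, was highest in the proliferating, fibroblast-like and osteoblast-like cells. It stood at 370 ± 67.3 CPM in proliferating cells, 336 ± 69.3 in fibroblast-like and 310.1 ± 47.8 in osteoblast-like cells, and these neighbours overlapped within 1 SD. The proliferating mean rests on 6 libraries, all of runs 2 and 3. Compared within libraries, proliferating cells did not pass (log2 fold change -0.18 ± 0.18) and were above the fibroblast-like cells in 4 of 6. Tenocyte-like cells had 99.1 ± 38.9 CPM, with a highest library (175) under the lowest fibroblast-like one (255), and chondrocyte-like cells had 20.1 ± 12.7, which is within the background. The log2 fold changes were -1.69 ± 0.17 and -4.21 ± 0.26 (edgeR adjusted p = 5.0e-15 and 1.9e-27), and the former became -0.67, still past the test, without upper limits on genes and UMIs. That setting also counted the Angptl7 cluster as tenocyte-like. Lox and Loxl1 thus went opposite ways in tenocyte-like cells and the same way in chondrocyte-like cells.

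Loxl2, Loxl3 and Loxl4 share a scavenger receptor domain architecture that Lox and Loxl1 lack. Loxl2 (chr14:69609068-69695834, plus strand) was close to level over the matrix-making types, at 151 ± 39.1 CPM in fibroblast-like, 149 ± 56.2 in chondrocyte-like, 146 ± 63.1 in osteoblast-like and 139.8 ± 61.0 in tenocyte-like cells, and it passed in none of these 3 comparisons (log2 fold changes 0.19 ± 0.23, -0.08 ± 0.19 and -0.03 ± 0.20). It was higher in proliferating cells, at 298 ± 89.2 CPM and above the fibroblast-like cells in 6 of 6 libraries (0.73 ± 0.22, edgeR adjusted p = 0.0060), though not with DESeq2 (0.64, adjusted p = 0.073). Loxl3 (chr6:83034173-83052562, plus strand; its span overlaps Htra2 on the other strand) was highest in chondrocyte-like cells, at 142 ± 36.2 CPM against 69.8 ± 36.7 in fibroblast-like cells (higher in 7 of 8 libraries, 1.19 ± 0.18). It also passed as higher in tenocyte-like cells (95.1 ± 34.5 CPM, 0.65 ± 0.18, edgeR adjusted p = 0.0027), higher in 9 of 12 libraries, but not without upper limits on genes and UMIs, where these cells took in the Angptl7 cluster (0.49). In osteoblast-like cells its change of 0.46 ± 0.15 fell short of the fold limit. It passed in 8 of 24 other settings (0.51 to 0.60), among them those without peak 2, resolved 1, rest 2 or rest 3. Loxl4 (chr19:42593982-42612813, minus strand) reached 12.8 ± 11.9 CPM in chondrocyte-like cells, above the fibroblast-like cells (1.74 ± 1.20) in 7 of 8 libraries, and 8.88 ± 7.30 in tenocyte-like cells, above them in 10 of 12; these are descriptions of a sparse gene with no test.

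Of the lysyl hydroxylases, Plod2 differed widely between types and Plod1 less. Plod2 (chr9:92542223-92608428, plus strand) was highest in chondrocyte-like cells: the 8 libraries held 601 to 930.1 CPM with a median of 776, and the 12 fibroblast-like sums held 34.9 to 253 with a median of 122. These ranges lay far apart, every library went the same way, and the log2 fold change was 2.79 ± 0.21 (edgeR adjusted p = 1.4e-21). Osteoblast-like cells followed with 200.3 ± 37.4 CPM (0.66 ± 0.18, edgeR adjusted p = 0.0023), higher in only 7 of 12 libraries, and came to 0.46, under the fold limit, when the largest unnamed cluster was added to the fibroblast-like cells. Plod1 (chr4:147909753-147936767, minus strand) was 111 ± 36.9 CPM in fibroblast-like, 111 ± 24.4 in chondrocyte-like and 121 ± 30.7 in tenocyte-like cells, and did not pass in the latter 2 (0.23 ± 0.15 and 0.21 ± 0.13). Its highest means were in lymphatic and vascular endothelial-like cells, 166 ± 53.7 and 137 ± 20.0 CPM, and neither passed (0.09 ± 0.17 and 0.08 ± 0.12), except that the lymphatic difference was 0.66 and passed with library totals as the only scaling. It was slightly lower in osteoblast-like cells (80.6 ± 16.8 CPM, lower in 11 of 12 libraries, -0.52 ± 0.12), a change at the fold limit that came to between -0.41 and -0.50 and did not pass in 10 of 24 other settings, among them those without peak 1, resolved 1, resolving 3, rest 2 or rest 3.

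P4ha1 and P4ha2 encode alternative catalytic subunits of the same enzyme. Their promoters and that of Serpinh1 are shown because the 3 genes serve the same early step and differ by cell type. Each is the 250 bases before the RefSeq start site (GRCm38.p6), read 5′ to 3′ on the gene's strand. Capitals mark matches to ACGTG and GCGTG (core letters bound by hypoxia-inducible factors and by aryl hydrocarbon receptor dimers) and to GAANNTTC and TTCNNGAA (units of the heat shock element), searched on both strands. ACGTG can overlap the E-box CACGTG. Of 32851 promoters of the same length 16.6% hold ACGTG, 28.2% GCGTG, 6.69% GAANNTTC and 7.17% TTCNNGAA. Each match is a description of letters and not a site.
P4ha1 (chr10:59323046-59323295, plus strand): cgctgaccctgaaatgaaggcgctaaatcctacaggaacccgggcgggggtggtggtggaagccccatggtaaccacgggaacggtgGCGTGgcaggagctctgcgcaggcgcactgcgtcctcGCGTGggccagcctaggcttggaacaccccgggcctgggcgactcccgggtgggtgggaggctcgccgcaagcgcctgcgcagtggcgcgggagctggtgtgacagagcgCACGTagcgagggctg
P4ha2 (chr11:54100674-54100923, plus strand): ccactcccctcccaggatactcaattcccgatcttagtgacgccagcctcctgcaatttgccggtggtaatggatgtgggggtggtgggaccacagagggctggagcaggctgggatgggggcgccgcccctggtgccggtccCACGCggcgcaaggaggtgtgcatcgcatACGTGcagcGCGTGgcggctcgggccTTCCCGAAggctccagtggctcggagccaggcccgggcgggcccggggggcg
Serpinh1 (chr7:99353240-99353489, minus strand): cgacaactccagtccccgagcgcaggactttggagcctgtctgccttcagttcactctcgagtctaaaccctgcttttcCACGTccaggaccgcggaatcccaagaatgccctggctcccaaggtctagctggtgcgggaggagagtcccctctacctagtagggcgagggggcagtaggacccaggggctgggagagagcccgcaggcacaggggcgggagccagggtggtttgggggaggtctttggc
P4ha1 has ACGTG on the minus strand at 16 to 12 bases before the start and GCGTG at 163 to 159 and 126 to 122. P4ha2 has ACGTG at 78 to 74, GCGTG at 107 to 103 on the minus strand and at 69 to 65 on the plus strand, and TTCNNGAA at 52 to 45, and Serpinh1 has ACGTG on the minus strand at 171 to 167. The P4ha2 window lies inside the longer GENCODE gene span, which starts at 54100095.

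The subunits parted in tenocyte-like cells. P4ha1 (chr10:59323296-59373304, plus strand) rose there to 258 ± 62.4 CPM (lowest 145, median 255, highest 377) from 108 ± 29.8 in fibroblast-like cells (79.3, 107 and 167), higher in 12 of 12 libraries (log2 fold change 1.30 ± 0.14, edgeR adjusted p = 3.4e-13). P4ha2 (chr11:54100095-54131665, plus strand) stood at 13.8 ± 8.53 CPM in the same cells (4.30, 11.3 and 34.3) against 94.0 ± 29.0 in fibroblast-like cells (63.8, 89.5 and 135). No tenocyte-like sum reached the lowest fibroblast-like one, and P4ha2 was lower by 2.58 ± 0.27 on the log2 scale (edgeR adjusted p = 7.1e-14). This result depends on how finely the cells were divided. With coarser clusters the tenocyte-like name went to a wider cluster of 2657 cells, led by Clu, Angptl7 and Wif1. The 664 tenocyte-like cells and the 1622 cells of the largest unnamed cluster (leading genes Angptl7, Clu and Fbln7) are together fewer than these. An unnamed cluster of 637 cells led by Cytl1, Mfi2 and Clu no longer stood apart at that setting. Which cells joined was not traced. P4ha2 then differed by -0.09 and did not pass, and Plod2 went from 0.11 to 1.11 and passed. In chondrocyte-like cells both subunits were higher, P4ha1 at 249 ± 29.6 CPM in 8 of 8 libraries (1.28 ± 0.16) and P4ha2 at 170.1 ± 53.6 in 6 of 8 (1.15 ± 0.19). Neither passed in osteoblast-like cells (0.28 ± 0.13 and 0.12 ± 0.16).

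Serpinh1 (chr7:99345376-99353239, minus strand) rose in the cartilage and bone types. Chondrocyte-like cells had 6101 ± 934 CPM (lowest 4629.7, median 6315, highest 7602), above all 12 fibroblast-like sums (2055 ± 893; 897, 1968 and 3357), with a log2 fold change of 1.62 ± 0.17 (edgeR adjusted p = 1.9e-14). Osteoblast-like cells had 3212 ± 530 CPM, above the fibroblast-like cells in 11 of 12 libraries although the ranges overlapped (0.64 ± 0.15, edgeR adjusted p = 2.3e-04). Tenocyte-like cells, at 1768 ± 437 CPM, did not differ by the test (-0.10 ± 0.15).

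**Figure D2:**
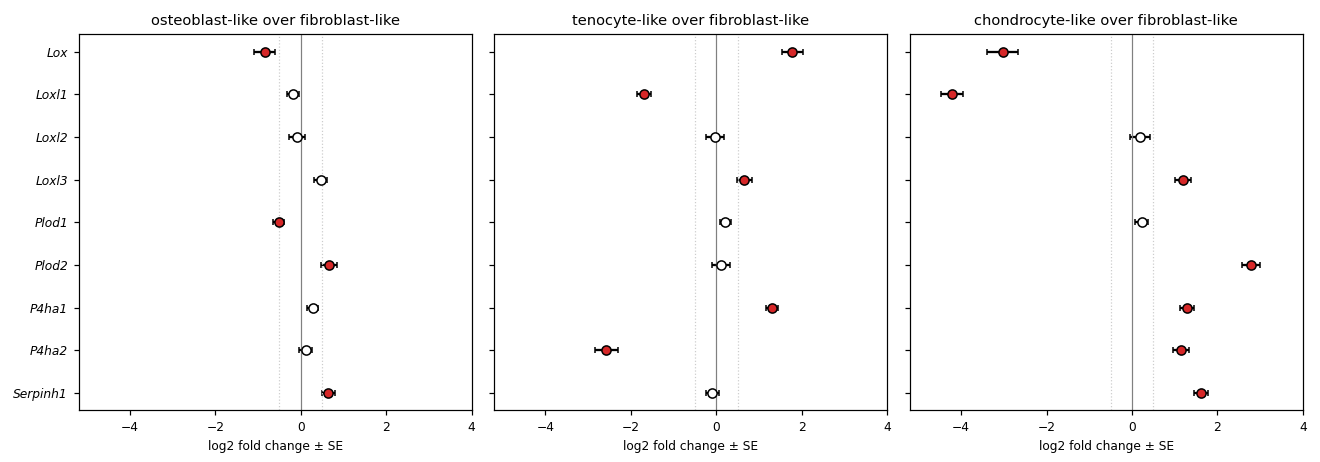
Log2 fold change ± SE of the 9 tested genes in osteoblast-like, tenocyte-like and chondrocyte-like cells over fibroblast-like cells; red marks genes that passed and dotted lines mark the fold limit of 0.5. Plod2 (2.79) and Serpinh1 (1.62) lead in chondrocyte-like cells, and P4ha1 and P4ha2 lie on opposite sides of 0 in tenocyte-like cells (1.30 and -2.58).

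Counted by type, chondrocyte-like cells had 5 members higher and 2 lower of 9, where 20.1% of 9667 genes passed as higher and 27.4% as lower (47.5% in all). The members' median log2 fold change was 1.15 against -0.14 over all genes tested. The sums rest on few cells, 10 to 69 a library, with a median of 12509 UMIs a cell, above that of each fibroblast-like cluster. With every cell thinned to 2000 UMIs the 7 members that passed still did, as they did in each of the 24 settings tried. Tenocyte-like cells had 3 higher and 2 lower (7.71% and 14.1% of all genes; medians 0.11 and -0.15), from 29 to 108 cells a library. Osteoblast-like cells had 2 higher and 2 lower (12.6% and 15.6%; 0.12 and -0.02). Proliferating cells had 4 higher and 0 lower (10.8% and 15.9%), namely Loxl2, Loxl3 (0.57 ± 0.18), Plod2 (0.58 ± 0.22) and P4ha2 (0.51 ± 0.19). The proliferating sums came from 6 libraries, all of runs 2 and 3. P4ha2 did not pass in 12 of 24 other settings, among them those without peak 1, resolved 2, resolved 3, rest 1 or rest 3, and Plod2 did not pass without rest 1 (0.52), with DESeq2 or with RLE size factors (0.47 each) or with the largest unnamed cluster added (0.45). Loxl3 did not pass with DESeq2 (0.49), with RLE size factors (0.46) or with cells thinned to 2000 UMIs (0.42). The dissociation and immediate early genes, 20 genes that enzymatic digestion is known to induce, moved as well: 10 of 19 tested were higher and 2 lower in tenocyte-like cells, 4 and 5 in osteoblast-like, 5 and 5 in chondrocyte-like, and 0 and 16 in proliferating cells. Their part in the members' differences was not tested.

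In the remaining types no member was higher, and most were lower in all but erythroid-like cells. Vascular endothelial-like cells had 8 of 9 members lower, where 27% of all genes were (53.3% in either direction), from Loxl1 at -4.75 ± 0.19 (edgeR adjusted p = 1.0e-40) to P4ha1 at -0.71 ± 0.14 (-0.43 and not past the test with library totals as the only scaling). Plod1 was the member that did not pass. Lymphatic endothelial-like cells gave the same 8 (26.3% of all genes lower, 39.7% in all), with Loxl1 at -5.40 ± 0.34, and Plod1 again did not pass. Loxl2 (-1.48 ± 0.31) was lost with at least 20 cells per sum. The Loxl1 means of vascular and lymphatic endothelial-like cells (14.3 and 8.75 CPM) lay within the background. So did those of Schwann-like and erythroid-like cells (29.8 and 27.7 CPM). How far Loxl1 falls in these types is therefore not known. Perivascular-like cells had 8 lower and 0 higher (24.2% and 17% of all genes, 41.1% in all), all but Loxl2 (-0.37 ± 0.21), and their P4ha1 and Serpinh1 changes, -0.53 ± 0.16 and -0.57 ± 0.15, were near the fold limit. They did not pass in 16 and 10 of 24 other settings, in both cases without peak 1, resolved 1, resolving 1 or rest 2 and for P4ha1 also without peak 2, peak 3, resolved 3 or rest 3. Muscle-like cells had 8 lower (28.3%, 39.6% in all), all but P4ha1 (0.08 ± 0.22), which stood at 133 ± 56.0 CPM there; Plod2 (-0.97 ± 0.36) did not pass in 13 other settings (-0.51 to -0.92), among them those without peak 3, resolved 1, resolving 1, resolving 2 or any 1 of the rest libraries.

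Immune-like cells had 9 of 9 members lower (19.9% of all genes, 31.9% in all), from 3 libraries. P4ha2 had 0 UMIs in all 3; against a floor of 3 counts over the summed libraries (8.39 CPM) this is at least 14.7-fold lower than the 123 CPM of the fibroblast-like cells of the same libraries. Schwann-like cells, also from 3 libraries, had 7 lower and 0 higher (11% and 5.39% of all genes), all but Loxl3 and P4ha1 (-1.05 ± 0.64 and -0.42 ± 0.37). Of the 7 Loxl1 alone passed in all other settings, and without peak 3 the changes of Lox, Loxl2, Plod2, P4ha2 and Serpinh1 did not pass. Without rest 1 those of Lox, Loxl2 and Plod1 did not, and without resolved 3 those of Plod1, Plod2 and Serpinh1. Erythroid-like cells, from 2, had 3 lower and 0 higher (10.3% and 5.93%): Loxl1, Loxl2 and Serpinh1, of which Loxl2 (-3.09 ± 1.12) was lost without peak 1, peak 3, resolved 2, rest 3 or any 1 of the resolving libraries. In muscle-like, immune-like and erythroid-like cells Loxl4 had 0 UMIs in every library.

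The wider collagen machinery gives the setting for these values. Of 24 other genes of collagen biosynthesis and processing, chondrocyte-like cells had 13 higher and 4 lower of 20 tested (median log2 fold change 0.96), led by Colgalt2 (3.80), which adds galactose to hydroxylysine, and P3h2 (3.09), a prolyl 3-hydroxylase, with Adamts2 (-4.47), a procollagen N-proteinase, and Pcolce (-2.08) lowest. In osteoblast-like cells 5 were higher and 3 lower of 20, including P3h2 (0.98) and Fkbp10 (0.66), an endoplasmic reticulum prolyl isomerase that acts with Plod2, and Pcolce2 (-3.77) and Colgalt2 (-2.94). In tenocyte-like cells 1 was higher, P3h2 (4.22), and 5 were lower, among them P4ha3 (-2.24), the third alpha subunit, and Colgalt2 (-1.81). Of 12 fibrillar collagen and elastin genes 11 were tested in each: chondrocyte-like cells had 4 higher and 7 lower (Col2a1 10.72, Col11a2 10.06, Col3a1 -4.10, Eln -3.66), osteoblast-like 6 and 2 (Col11a2 4.13, Col11a1 2.28, Eln -2.85, Col5a3 -1.45), and tenocyte-like 2 and 6 (Col11a2 4.52, Col11a1 1.51, Eln -2.66, Col5a3 -2.44). Col2a1 is among the markers that named the chondrocyte-like cluster, so that gene's being higher there was fixed by the naming. Eln, the elastin gene, was lower in all 3 types, and Loxl1 was lower in the chondrocyte-like and tenocyte-like cells. Of 14 hypoxia-induced genes, a class to which P4ha1, P4ha2, Plod2 and Lox are known to belong, chondrocyte-like cells had 5 higher and 4 lower of 13 tested (Slc2a1 2.58, Pdk1 1.30, Adm -1.85, Ndrg1 -1.54). Osteoblast-like cells had 0 higher and 6 lower of 13, with Egln3 (-2.66) and Ndrg1 (-1.43) among them. Tenocyte-like cells had 1 higher, Ndrg1 (0.74), and 3 lower, among them Egln3 (-3.84) and Egln1 (-1.04).

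Within the fibroblast-like cells the lining layer, the cells that face the joint space, was compared with a sublining-like cluster. Lining-like cells (1056, leading genes F13a1, Rab37 and Col22a1, 5 of 5 lining markers) and sublining-like cells (1308, leading genes Stmn4, Dpp4 and Wnt2, 5 of 5 markers) were present in all 12 libraries and compared as pairs over 5780 genes. Of 9 members 2 were higher and 3 lower in lining-like cells, where 12.9% and 13.7% of all genes were.

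Plod2 was higher in lining-like cells in 12 of 12 libraries, at 163 ± 71.3 CPM (lowest 90.9, median 141, highest 294) against 51.9 ± 29.4 in sublining-like cells, a log2 difference of 1.59 ± 0.10 (edgeR adjusted p = 6.3e-12). Plod1 was higher in 10 of 12, at 103 ± 15.0 against 74.4 ± 23.4 CPM (0.53 ± 0.10), a change just over the fold limit. It came to 0.46 to 0.50 and was lost without peak 1, resolving 1, resolving 2 or resolving 3 and without upper limits on genes and UMIs. Loxl1 went the other way: the lining-like sums held 84.1 to 242 CPM and the sublining-like sums 327 to 529, with no overlap, and the difference was -1.56 ± 0.09 (edgeR adjusted p = 1.0e-12). Serpinh1 was lower in 12 of 12 libraries, at 834 ± 364 against 1626 ± 624 CPM (-1.0 ± 0.07, edgeR adjusted p = 2.5e-11). Loxl3 was lower in 10 of 12, at 27.5 ± 19.9 against 40.6 ± 10.0 CPM (-0.92 ± 0.18). P4ha2 was lower by 0.43 ± 0.11, under the fold limit, and Lox (0.14 ± 0.15), Loxl2 (-0.17 ± 0.12) and P4ha1 (0.06 ± 0.09) did not pass.

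In lining-like cells 6 of 7 tested fibrillar collagen and elastin genes were lower, among them Col1a2 (-2.53) and Col1a1 (-2.09), and 1 was higher, Col5a3 (0.90), with a median log2 difference of -1.78 against -0.01 over all genes. Of the other collagen biosynthesis genes 4 were higher and 5 lower of 19, with Tgm2 (3.44), a transglutaminase that cross-links proteins by another chemistry, and Colgalt2 (2.03) highest and Adamts2 (-2.42) and Pcolce2 (-2.14) lowest. Of 7 hypoxia-induced genes tested 4 were higher and 2 lower (Slc2a1 0.93, Ero1l 0.85, Adm -1.95, Ndrg1 -0.53). Heat shock genes had 0 higher and 5 lower of 11 (median -0.41), and dissociation genes had 1 higher and 5 lower of 19 (median -0.33). Their part in the members' differences was not tested.

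**Figure D3:**
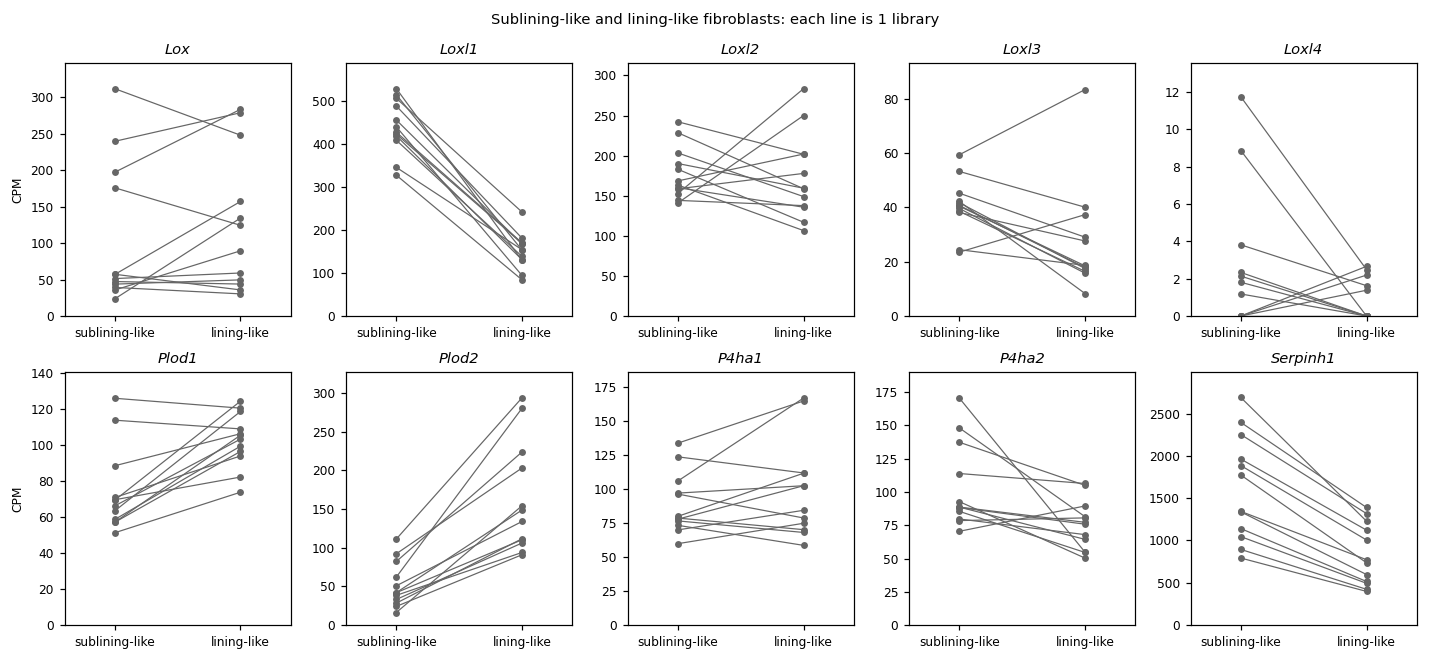
Level in CPM of each of the 10 genes in lining-like and sublining-like cells, where each line joins the cells of 1 library. Plod2 is higher in lining-like cells in 12 of 12 libraries, and Loxl1 and Serpinh1 are lower in 12 of 12.

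The 9 fibroblast-like clusters differed widely in the members, and these values are a description without a test. Clusters were averaged over different libraries, so a rank also carries which runs a cluster came from: 87.9% of the cells of the Cxcl5 cluster were in run 2, and 87.3% and 87.9% of those of the Hp and C1qtnf3 clusters in run 3. Lox was highest in a cluster led by Cxcl5, Sfrp1 and Saa3 (918 ± 140 CPM, 6 libraries), followed by the Hp, Saa3 and Mmp11 cluster (562.5 ± 143, 6 libraries) and the C1qtnf3, Spon2 and Cthrc1 cluster (471 ± 213, 8 libraries), and lowest in the Hmcn2, Ccl11 and Hsd11b1 cluster (101 ± 30.1). Set against all fibroblast-like cells of the same library, Lox was higher in 6 of 6 libraries in the Cxcl5 cluster, 4 of 6 in the Hp cluster and 4 of 8 in the C1qtnf3 cluster. Plod2 was highest in the C1qtnf3 and Cxcl5 clusters (229 ± 41.6 and 228 ± 57.3) and lowest in the Inmt, Serpina3c and Dkk2 cluster (37.6 ± 11.6). The same clusters led for Serpinh1, at 3528 ± 206 CPM in the Cxcl5 and 3081 ± 799 in the C1qtnf3 cluster, while its lowest level was in the lining-like F13a1 cluster.

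Loxl1 ranged from 151 ± 41.3 CPM in the F13a1 cluster to 517 ± 88.6 in the Hp cluster, and Loxl2 from 52.0 ± 22.6 in the Nppc, Egfl6 and Vipr2 cluster to 251 ± 130 in the Cxcl5 cluster. P4ha2 was lowest in the same Nppc cluster, which held 23.7 ± 9.09 CPM in 12 libraries, whereas the other 8 clusters had means of 52.7 to 155. It was below the fibroblast-like sum of the same library in 12 of 12, while P4ha1 (139.8 ± 21.1 CPM) was above it in 9 of 12. This cluster carried 3 of 6 tenocyte markers. So did the C1qtnf3 cluster and the unnamed cluster led by Angptl7, Clu and Fbln7, where P4ha2 stood at 139 ± 53.0 and 73.9 ± 30.8 CPM. Among the unnamed clusters, one led by Cytl1, Mfi2 and Clu, in which 4 of 8 cartilage markers were found, held 425 ± 109 CPM of Plod2, 209.9 ± 27.9 of P4ha1 and 177 ± 34.2 of P4ha2 in 11 libraries.

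**Figure D4:**
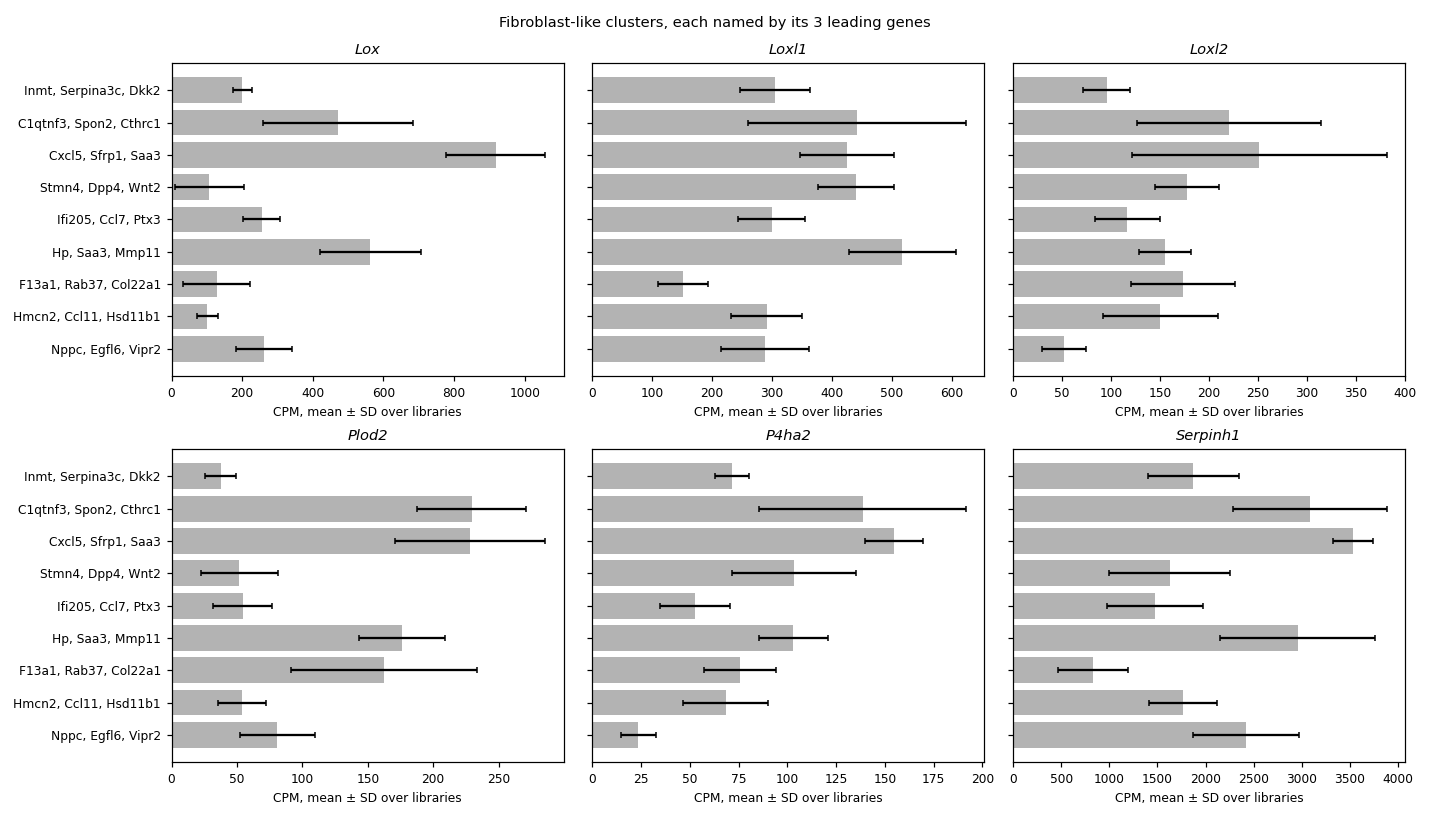
Mean ± SD over libraries, in CPM, of Lox, Loxl1, Loxl2, Plod2, P4ha2 and Serpinh1 in the 9 fibroblast-like clusters, each named by its 3 leading genes. Lox peaks in the Cxcl5 cluster (918 CPM), and P4ha2 is lowest in the Nppc cluster (23.7 CPM).

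By stage label no member passed. In fibroblast-like cells 0 of 11789 genes passed for peak, resolving or resolved over rest (0% each; edgeR gave 95, 87 and 62 genes with an unadjusted p under 0.05), and 0 of 30 member tests had an unadjusted p under 0.05; DESeq2 also gave 0 members. The spread within a label was wide: Lox was 393.5 ± 240 CPM in the libraries labelled rest, 386 ± 390 in peak, 192 ± 103 in resolving and 457 ± 337 in resolved (n = 3 each). In osteoblast-like, tenocyte-like and chondrocyte-like cells (6411, 2990 and 3441 genes tested) 0% of genes passed. There 5 of 75 member tests had an unadjusted p under 0.05, as did 1031 of the 38526 tests over all genes (6.67% and 2.68%). With libraries of such different kinds under 1 label, these counts do not show that the members were level over the disease.

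The same sums differed strongly between runs of barcode suffixes. The test of any difference among the 4 runs was passed by 10 of 10 members in fibroblast-like cells, where 57.6% of all genes passed, so that only the pattern and not the count is of interest. Lox held 168, 195 and 146 CPM in run 1 (rest 1, peak 1, resolving 1), 793, 646 and 834 in run 2 (resolved 1, rest 2, peak 2), 310.1, 459 and 366 in run 3 (resolving 2, resolved 2, rest 3) and 128, 119 and 119 in run 4 (peak 3, resolving 3, resolved 3). The 4 runs did not overlap, with run 2 highest and run 4 lowest, and over run 1 the log2 fold changes were 2.24 ± 0.15, 1.20 and -0.41 (edgeR adjusted p of the test over runs 3.5e-08).

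Serpinh1 followed the same order, with 1419.5 to 1631 CPM in run 1, 3134 to 3357 in run 2, 2306 to 2467 in run 3 and 897 to 1219.8 in run 4. Loxl3 did so too, from 121 to 130.0 CPM in run 2 down to 32.4 to 39.3 in run 4. Plod2 was lowest in run 1, at 34.9 to 56.4 CPM, then 181 to 253, 149 to 213 and 62.4 to 94.9 in runs 2, 3 and 4, and P4ha2 was likewise lowest in run 1 (63.8 to 66.9). Loxl1 and Plod1 peaked in run 3 instead, at 429 to 450 and 147 to 186 CPM, above every library of the other runs. P4ha1 was highest in run 2 by a narrow margin (its lowest library 116.4 against 115.0 for the highest elsewhere).

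Libraries of run 2 stood above all others for 9.59% of 11412 genes and those of run 3 for 6.75%. Those of run 4 stood below all others for 4.43% and those of run 1 for 1.51%. Among the members these were Lox, Loxl3, P4ha1 and Serpinh1 for run 2, Loxl1 and Plod1 for run 3, Lox, Loxl3 and Serpinh1 for run 4, and Plod2 and P4ha2 for run 1.

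**Figure D5:**
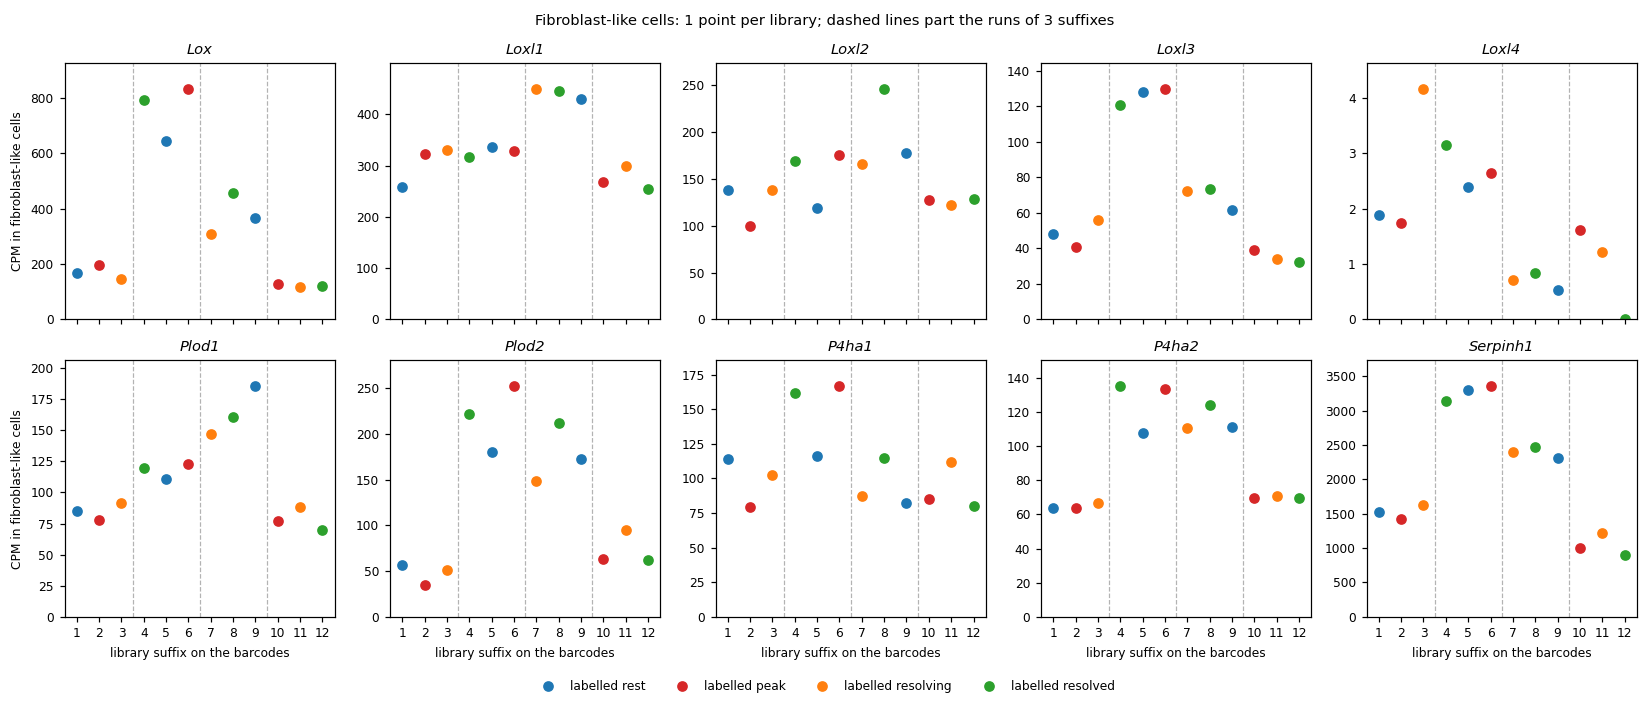
Level in CPM of each of the 10 genes in the fibroblast-like cells of each library against its barcode suffix, coloured by stage label, with dashed lines between runs of 3. Lox, Loxl3 and Serpinh1 are highest in the 3 libraries of run 2 and lowest in those of run 4, whichever stage the label gives.

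The make-up of the fibroblast-like cells moved with the runs. The Cxcl5 cluster was 44.9% of them in run 2 and at most 4.44% elsewhere, the C1qtnf3 and Hp clusters were 35.7% and 24.0% in run 3, and the Inmt and Stmn4 clusters were 35.3% and 20.5% in run 1 and 20.1% and 22.2% in run 4. With the 3 clusters that had over 70% of their cells in 1 run left out, 5 of 9 members tested still differed between runs, where 16.9% of 10768 genes did. In lining-like cells alone 7 of 9 did, against 19.6% of 6752 genes. In sublining-like cells alone 3 of 9 did, against 6.35% of 6926 genes. Serpinh1 kept its order inside both subsets, with run 2 above and run 4 below all other libraries (lining-like 1228 to 1390.0 and 398 to 494 CPM, sublining-like 2252 to 2689.6 and 792 to 1045). Plod2 in lining-like cells was likewise highest in run 2 (224 to 294 CPM) and lowest in run 1 (90.9 to 106). Serpinh1 stood in that order also in vascular endothelial-like cells, at 1405 to 1826 CPM in run 2 and 944 to 991 in run 4. It did not keep the whole order in other types. Run 3 had a higher mean than run 2 in osteoblast-like (3625 against 3494 CPM), tenocyte-like (2283 against 1983) and perivascular-like cells (2150.0 against 2129.9), and the libraries of these runs overlapped in each type. Run 4 still lay below all other libraries in osteoblast-like cells (2348 to 2556 CPM). In chondrocyte-like cells Serpinh1 had its highest mean in run 1 (6906 CPM), and both libraries of run 3 lay below all others (4629.7 and 5252). Run 4 had too few chondrocyte-like cells for a sum. Tenocyte-like cells went against the pattern for Lox, with run 2 the lowest (658 to 765 CPM), so that the excess over fibroblast-like cells was absent in libraries of run 2 other than rest 2 (684 against 646).

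Other gene groups in the fibroblast-like sums moved with the runs as well, and their part in the members' differences was not tested. The 12 fibrillar collagen and elastin genes summed to 13735 to 14789 CPM in run 1, 33126 to 37166 in run 2, 38842 to 45243 in run 3 and 9808 to 11195 in run 4, and 11 of 12 passed the test over runs. The hypoxia-induced genes summed to 1400 to 1845 CPM in run 2 and to 845 to 1006 in the other runs, and 9 of 13 passed, whereas the other collagen biosynthesis genes (21 of 22 passed) lay between 4165 and 5535 CPM throughout. The dissociation genes were higher in runs 1 and 4 (12742 to 24830 CPM) than in most libraries of runs 2 and 3 (10851 to 14297), and the 7 cell cycle markers were highest in run 2 (61.1 to 70.1 CPM against at most 32.9).

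The pattern of each member over the 12 cell types was set beside that of 9955 other genes by Pearson's r of mean log2(CPM + 1), as a description of 12 points that share libraries. Serpinh1 was most like P3h1 (0.97), Srprb (0.97) and P3h4 (0.96), where P3h1 is the prolyl 3-hydroxylase of collagen. P4ha2 was most like Srprb (0.95) and P3h1 (0.94), P4ha1 like Fkbp9 (0.96), and Plod2 like Wisp1 (0.95) and Thbs3 (0.94). Lox was most like Tbx18 (0.94), Fam26e (0.93) and Pcolce (0.92), Loxl1 like Fdx1l (0.93), Loxl2 like Rcn3 (0.95), Loxl3 like Kdelr3 (0.96), Plod1 like Ptdss1 (0.96) and the sparse Loxl4 like Crispld1 (0.96). Among the 45 pairs of members P4ha2 and Serpinh1 were the most alike (0.94) and Loxl1 and Plod1 the least (0.16).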

How the data were processed

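Stromal cells from 12 libraries were profiled by 10x Genomics 3′ (version 2) single-cell RNA sequencing. The values deposited by the authors are whole-number UMI counts per gene and cell, made with CellRanger v2.1.1 on mm10 (27998 genes; 27645 identifiers matched GENCODE M21). Depth is given as total UMIs per library, and every library's deposited cells had the same median of 5358 UMIs. Why these medians are equal is not given in the sources used here, and the depth of the libraries before deposit is not known. Cells were kept by the study's own cut-offs (500 to 5000 genes, at least 500 UMIs, and its upper UMI bound for each library), and doublets were removed only as an alternative.

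Counts were normalised to 10000 per cell and log-transformed, and the 2000 most variable genes, with members and listed genes left out, gave 30 principal components, 20 neighbours and Leiden clusters at resolution 1 (scanpy 1.11.5, Python 3.11.15). A cluster took the name of a type when at least 4 of its markers were found in at least 20% of its cells and at least 1 log2 unit above the remaining cells, and no other type had 70% of its markers so found, or as fibroblast-like when at least 5 of 7 fibroblast markers were in at least 30% of cells; subsets needed 3 markers. These naming limits were set after the clusters were seen. Cell cycle markers did not count against another type, lymphatic cells could carry vascular markers, and clusters led by Adipoq or by more markers of another type stayed unnamed. The unnamed clusters were left out of comparisons.

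UMIs were summed per library and type (at least 10 cells) and tested with edgeR 4.0.16 (R 4.3.3; TMM scaling, filterByExpr, quasi-likelihood F test), with libraries as replicates and Benjamini-Hochberg adjustment over all genes tested. All types entered 1 fit with library as a block, lining-like and sublining-like sums were likewise blocked by library, and stages and runs were compared with no covariate. As each library pooled 3 animals, p-values measure the spread between pools. All members were described, and from each other list the 2 genes with the largest change in each direction among those that passed; genes alike over types were the top 3 over 5 CPM. The members, lists and tests were chosen with earlier results of these data known. Alternatives were DESeq2 1.42.0, other scalings, filters, cell limits, clusterings and sets of libraries. The code was tested on simulated counts. Gene coordinates come from GENCODE M21 and promoters from RefSeq (GRCm38.p6), which held 5 of 10 members.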

Additional observations from a re-analysis of the deposited data

Results flagged for a closer look

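Lox in the chondrocyte-like cells of resolved 2 stood apart from the other libraries of that type: it held 183 CPM from 17 cells, where the 7 other libraries held 0 to 72.7 CPM. Loxl3 in the lymphatic endothelial-like cells of peak 2 stood apart in the same way, with 57.1 CPM from 16 cells against 0 to 14.9 CPM in the 9 other libraries. The peak 2 sum held only 70056 UMIs over all genes, so its Loxl3 value rests on few counts. Of 40 groups of libraries, those at 0 CPM in most of their libraries were passed over, and Dixon's criterion was applied to the remaining ones. Chance alone picks out about 1 in 20.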

How the results depend on the processing

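No member's difference that passed changed direction under any alternative. In the comparisons of types with fibroblast-like cells 14 member tests were higher and 57 lower of 99. These became 33 lower of 72 with at least 20 cells per sum, and 12 to 16 higher and 49 to 57 lower when single libraries were left out. DESeq2 gave 11 and 47, and library totals alone gave 17 and 47. In the main fit the share of all 9667 genes that passed ranged by type from 5.39% to 26.3% as higher. As lower it ranged from 10.3% to 28.3%. The member counts are given here to show how the calls moved, and not as a result about the members. Over all genes, thinning each cell to 2000 UMIs took the calls from 13760 to 8019 higher and from 21265 to 12798 lower. Another scaling moved the median of all genes by up to 0.59 (Schwann-like cells, library totals alone) and DESeq2 moved it by up to 1.01 (erythroid-like cells), but by at most 0.17 in chondrocyte-like, tenocyte-like and osteoblast-like cells. Between lining-like and sublining-like cells the 2 higher members became 1 without upper limits on genes and UMIs, and 1 to 2 when single libraries were left out; at Leiden resolution 0.5 no sublining-like cluster was found and nothing could be fitted. By stage label in osteoblast-like, tenocyte-like and chondrocyte-like cells, 1 member was higher with no filter on low counts (Lox, chondrocyte-like, resolved over rest, 3.09), where all genes gave 107 higher and 115 lower calls against 0. Between runs, 10 members (57.6% of all genes) became 5 without the clusters mostly of 1 run (16.9%) and 3 in sublining-like cells alone (6.35%), both chosen after seeing the data; fewer cells and fewer genes were tested there. With the replicate number as a block, 8 members and 39.8% of all genes differed between runs (Loxl2 and Loxl4 were lost, edgeR adjusted p = 0.052 and 0.16) and 0 by stage label. The numbers were not taken as pairs, since deviations of same-numbered libraries from their stage means correlated at -0.53 to 0.63 and 5 of 12 libraries correlated best with one of their own number. Depth limits Loxl4 (304 UMIs) and the types with sums from 2 or 3 libraries.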
